A study of Arabidopsis thaliana with 6 samples.

Results

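Callus of Arabidopsis thaliana that had spent 9 days in the liquid medium named low differentiating was set against the callus it came from. The comparison was chosen by sample name and uses 2 of the 6 arrays of the series, 1 array on each side. Both samples were cell cultures of ecotype Ler (stock NW20). Leaves cut from seedlings 14 to 17 days old were kept in darkness at 22 °C for 2 weeks on an induction medium of Gamborg's B5 salts, 2.0% glucose, 0.5 mg/l 2,4-D (a synthetic auxin) and 0.05 mg/l kinetin (a cytokinin). The low medium sample was then shaken at 105 rpm in Murashige and Skoog salts with 0.2% sucrose, 4% mannitol, 0.5 mg/l 2,4-D and 1.5 µg/l kinetin until day 9. The callus sample, day 0, never entered liquid. Salts, sugar, osmoticum, kinetin, shaking and 9 days of culture therefore changed together, and their effects cannot be told apart here. Lighting of the liquid cultures was not given in the sources used here. As for auxin, 2,4-D was at the same concentration in both media. Other arrays used for side-by-side values were low medium at day 5, and day 9 in the high differentiating medium, which had the same sucrose and mannitol but 0.2 mg/l auxins and 1 mg/l benzyladenine, another cytokinin. All comparisons share the 1 callus array.

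Callus is a mass of proliferating plant cells held by auxin and cytokinin, and moving it to liquid changes the supply of sugar, hormone, water and oxygen at once. Small heat-shock proteins are chaperones that bind unfolding proteins in the cytosol and organelles, and plants induce them under heat and other stresses that disturb protein folding. Class III peroxidases are secreted enzymes that use hydrogen peroxide to cross-link phenolics and wall proteins or to make reactive oxygen. Tau glutathione transferases and family 1 glycosyltransferases attach glutathione or sugar to reactive and foreign compounds, among them herbicides and the plant's own hormones.

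RNA was read on 1-colour ATH1 oligonucleotide arrays, with 1 intensity per probe set on a linear scale. Values below 24.7 were raised to 24.7, called the floor here, and 59.4% of probe sets lay above it in low medium at day 9 and 60.05% in callus. A ratio with 1 side at the floor is a bound, written as at least, and a gene at the floor on both arrays has no ratio. A difference was counted when it reached 2-fold, which is a log2 ratio of 1. This is a rule of size on 1 array each, with no replicate check and no test. The 3'/5' signal ratio of the GAPDH control, which follows RNA integrity, was 1.15 in low medium at day 9 and 0.969 in callus. The scan background was 82.04 in low medium at day 9 and 69.04 in callus. The part of either difference in the results was not tested. Among the cell type markers, 10 of 55 could be measured, and 4 of them exceeded the floor in each sample. The summed intensity of these 10 was 343.2 in low medium at day 9 and 378.3 in callus. The lateral root and callus regulator LBD16 read 161.3 in low medium at day 9 and 136.5 in callus. The xylan synthesis gene GUT2 read 64.4 in low medium at day 9 and 95.2 in callus. The stem cell peptide gene CLV3, the root hair expansin EXPA7 and the stomatal regulators SPCH, MUTE and FMA were at or below the floor on both arrays. These markers do not give either culture a cell type. In such bulk samples fewer cells of a type and less RNA per cell cannot be told apart.

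Of 22746 probe sets, 271 were at least 2-fold higher in low medium at day 9 than in callus (1.19%) and 356 were at least 2-fold lower (1.57%). The annotation used here pairs 13356 genes with a probe set. Of these genes 149 were higher (1.12%) and 159 lower (1.19%). The same rule counted 244 genes higher (1.83%) and 247 lower (1.85%) in low medium at day 5 against the same callus array. In high medium at day 9 it counted 165 genes higher (1.24%) and 173 lower (1.3%). The median log2 ratio over the 7786 genes with a ratio was -0.02 for low medium day 9 over callus. At 4-fold the counts were even, with 20 genes higher and 21 lower, and beyond that more genes were higher. At least 8-fold higher were 10 genes, 5 of them as bounds, and at least 8-fold lower were 2 genes, 1 of them as a bound. At 16-fold the counts were 5 genes higher and 0 lower. The 149 higher genes had a median intensity of 45.0 in callus, 178.1 in low medium at day 5 and 139.1 in low medium at day 9. The 159 lower genes had a median of 131.1 in callus, 44.7 in low medium at day 5 and 44.1 in low medium at day 9. Their callus and day 9 levels follow from how they were chosen. The day 5 array took no part in the choice, but it is set against the same callus values that did.

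**Figure D1:**
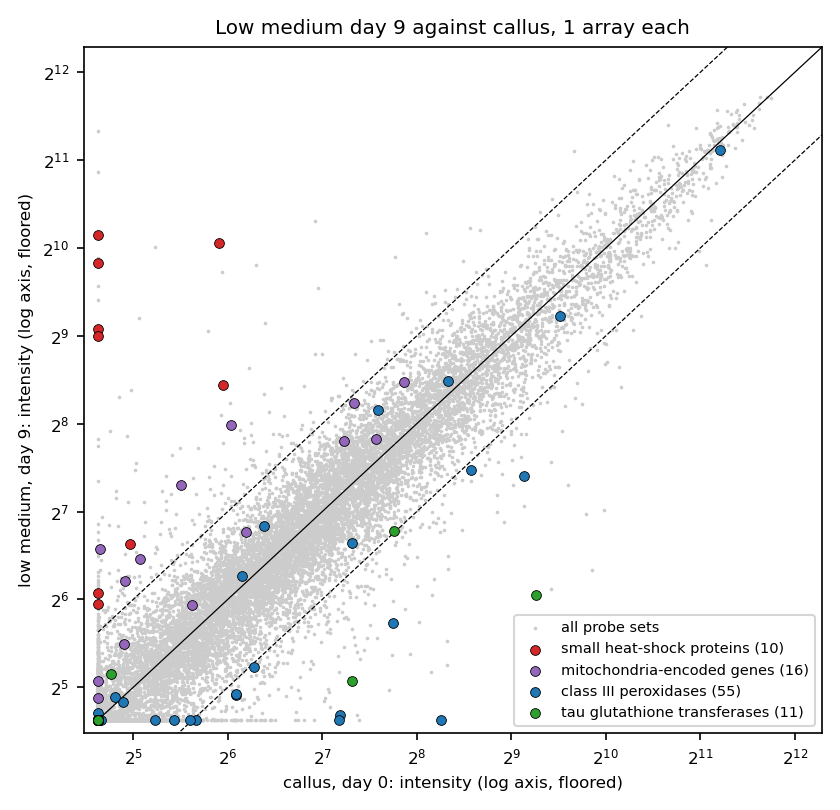
Each point is a probe set, with its intensity in low medium at day 9 on the vertical axis and in callus on the horizontal axis, both on log axes after the floor of 24.7 was applied. The solid line marks equal intensity and the dashed lines 2-fold. Small heat-shock protein genes (red) stand far above the upper line, while 2 tau glutathione transferases (green) and several class III peroxidases (blue) lie below the lower one.

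The gene lists below hold chosen members and not whole families, so their counts are of the list. Some called genes of the same family but outside a list are named after it, and these were picked after their values were seen.

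Small heat-shock protein genes were higher in low medium at day 9 than in callus, by more than any other list described here. Of 10 measured, 9 were at least 2-fold higher and 0 lower, against 1.12% of all genes. Their median log2 ratio was 3.32, with the member at the floor on both arrays counted as 0. Of the 5 genes at least 16-fold higher, all 5 were of this family. AT1G53540, a class I cytosolic member, read 1138.3 in low medium at day 9 and 9.1 in callus, which is at least 46.1-fold. AT2G29500, of the same class, read 906.7 in low medium at day 9 and 22.5 in callus, at least 36.7-fold. These genes lay under the floor in callus and among the bright genes after 9 days in liquid. AT1G52560 read 541.9 in low medium at day 9 and 1.3 in callus, at least 21.9-fold. The endoplasmic reticulum member ATHSP22.0 read 512.5 in low medium at day 9 and 12.6 in callus, at least 20.7-fold. AT1G54050, a class III member, read 1064.4 in low medium at day 9 and 60.1 in callus, which is 17.7-fold and not a bound. The called genes encode products of several cell compartments, though only RNA was measured. AT5G51440, whose product is mitochondrial, read 347.3 in low medium at day 9 and 61.9 in callus (5.61-fold). Dimmer members called were AT2G19310 (98.8 in low medium at day 9 and 31.2 in callus), AT5G37670 (61.6 and 14.0, in the same order) and AT5G47600 (67.1 and 23.9).

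The heat-shock signal at day 9 was below that of day 5 in the same medium. AT1G53540 read 9.1 in callus, 2349.1 in low medium at day 5 and 1138.3 at day 9. ATHSP22.0 read 12.6, 1340.7 and 512.5 on the same arrays. The median log2 ratio of the list over callus was 4.53 at day 5 and 3.32 at day 9. In high medium at day 9 it was 3.50, and 8 of its members were at least 2-fold higher there. The exception was AT5G47600, which read 67.1 in low medium at day 9, 20.1 in high medium at day 9 and 23.9 in callus. Without replicates the differences between days and media have no error.

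Of 14 other chaperone and heat-response genes, 5 were at least 2-fold higher (35.7%, against 1.12% of all genes) and 0 lower. The median log2 ratio of the list was 0.28. The 5 were co-chaperones and thermotolerance genes. AT5G48570, a peptidyl-prolyl isomerase of the ROF type that binds HSP90, read 315.1 in low medium at day 9 and 28.9 in callus (10.9-fold). AT2G20560, a DnaJ-type co-chaperone, read 333.0 in low medium at day 9 and 31.5 in callus (10.6-fold). Hop3, which links HSP70 to HSP90, read 227.0 in low medium at day 9 and 18.2 in callus, at least 9.19-fold. HSA32, needed for acquired thermotolerance to last, read 200.2 in low medium at day 9 and 42.5 in callus (4.71-fold). Fes1A, a partner of cytosolic HSP70, read 444.6 in low medium at day 9 and 162.2 in callus (2.74-fold). Other listed genes did not reach 2-fold. Hop1 read 171.4 in low medium at day 9 and 196.9 in callus, and Hop2 read 499.9 in low medium at day 9 and 346.7 in callus. The HSP70 gene AT3G09440 read 1124.5 in low medium at day 9 and 1170.7 in callus. The chaperonin gene Cpn60beta2 read 169.9 in low medium at day 9 and 209.6 in callus. Outside the list, the DnaJ-type genes AT5G05750 (426.6 in low medium at day 9, 206.1 in callus) and AT5G18750 (139.1 against 65.5) were 2.07-fold and 2.12-fold higher.

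In the endoplasmic reticulum stress and folding list, 1 of 9 genes was at least 2-fold higher and 0 were lower. The higher share was 11.1%, against 1.12% of all genes, and the median log2 ratio was 0.23. The called gene was BZIP60, a transcription factor whose messenger RNA is spliced when unfolded proteins gather in that compartment. It read 658.1 in low medium at day 9 and 286.8 in callus (2.29-fold). BZIP28, its membrane-bound counterpart, read 265.5 in low medium at day 9 and 168.6 in callus, short of 2-fold. The calreticulin gene CRT1b read 513.0 in low medium at day 9 and 635.4 in callus. Of the 15 genes with the highest ratios, 5 belong to no list here. AT5G10695 read 845.9 in low medium at day 9 and 61.5 in callus (13.8-fold), and AT1G72800 read 531.7 in low medium at day 9 and 55.2 in callus (9.63-fold). AT3G10020 read 744.7 in low medium at day 9 and 124.4 in callus (5.99-fold). AT2G15960 and AT1G67920 were 5.50-fold and 5.09-fold higher. The 2 probe sets with the highest ratios of all have no gene in the annotation used here. Probe set 252515_at read 2587.2 in low medium at day 9 and 16.4 in callus, and 250351_at read 1861.6 in low medium at day 9 and 6.9 in callus.

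**Figure D2:**
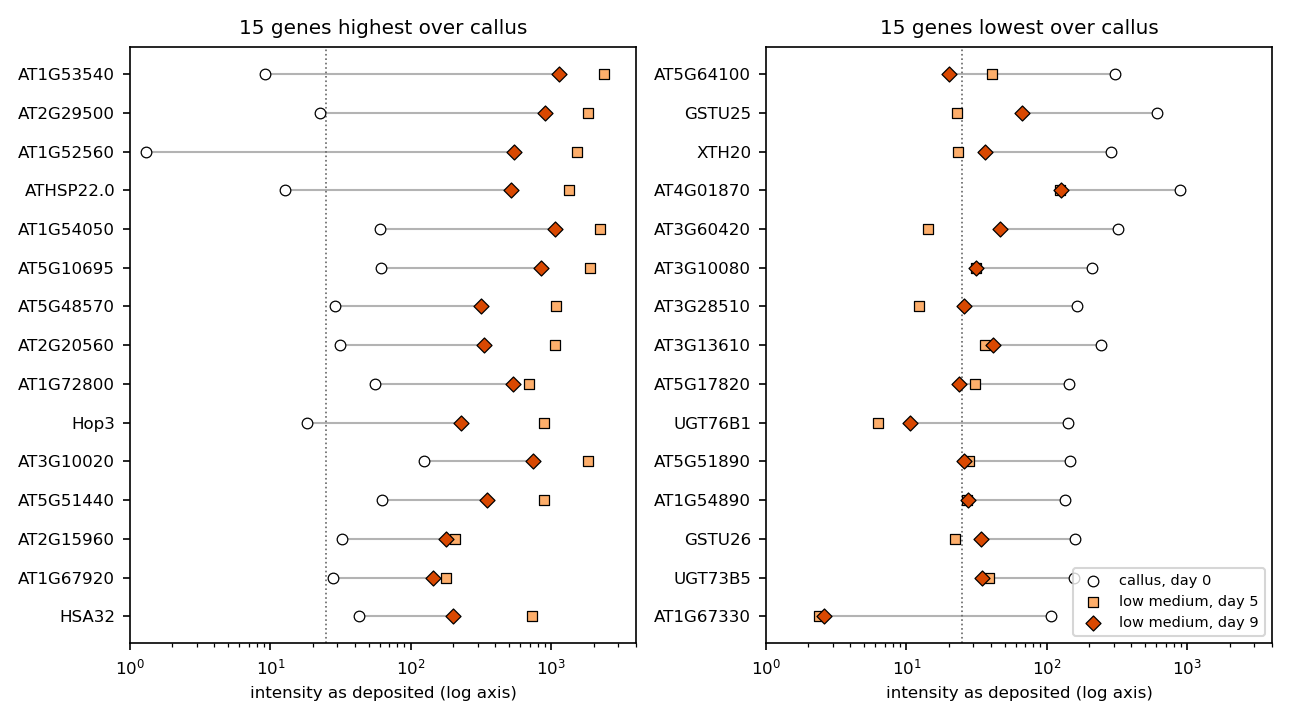
Intensities as deposited, on a log axis, of the 15 genes highest (left) and the 15 lowest (right) in low medium at day 9 relative to callus. Circles are callus at day 0, squares low medium at day 5 and diamonds low medium at day 9, 1 array each, and the dotted line is the floor. For the higher genes the day 5 squares lie to the right of the day 9 diamonds, while for most lower genes both lie close together or day 5 lies further left.

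Genes encoded in the organelles read higher in low medium at day 9 than in callus as groups. Of 16 mitochondria-encoded genes, 5 were at least 2-fold higher, against 1.12% of all genes, and 0 lower. All 14 with a ratio lay above 0, and the list median log2 ratio was 0.59. The 5 encode subunits of the respiratory chain. Of complex I genes, nad5 read 253.9 in low medium at day 9 and 65.4 in callus (3.88-fold), and nad6 read 94.9 in low medium at day 9 and 25.1 in callus (3.78-fold). Also of complex I, nad1 was 2.62-fold and nad4L 2.46-fold higher. The cytochrome oxidase subunit gene cox2 read 157.3 in low medium at day 9 and 45.4 in callus (3.46-fold), whereas cox1 read 300.8 in low medium at day 9 and 162.0 in callus (1.86-fold). Cytochrome c maturation genes moved less. The brightest of them, ccb382, read 226.7 in low medium at day 9 and 190.2 in callus. Along the low medium series nad5 read 65.4 in callus, 505.1 at day 5 and 253.9 at day 9. With cox2 the readings were 45.4, 334.8 and 157.3 on those arrays. Arabidopsis also carries copies of mitochondrial genes in its nuclear genome, and the probe sets cannot tell the copies apart.

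Of 69 chloroplast-encoded genes, 7 were at least 2-fold higher, against 1.12% of all genes, and 0 lower. Of the 64 with a ratio, 57 lay above 0 and 7 below. With the floor at the 60th percentile the calls were 2 of the chloroplast and 2 of the mitochondrial genes. The list median log2 ratio was 0.58. For photosystem II, psbT read 79.6 in low medium at day 9 and 19.0 in callus, at least 3.22-fold. Another photosystem II gene, psbB, read 91.5 in low medium at day 9 and 30.2 in callus (3.03-fold), and psbA read 75.7 in low medium at day 9 and 29.3 in callus (2.58-fold). The cytochrome complex gene petG read 73.8 in low medium at day 9 and 28.3 in callus (2.61-fold). The protease subunit gene clpP, the brightest of those called, read 1512.6 in low medium at day 9 and 691.8 in callus (2.19-fold). The Rubisco large subunit gene rbcL was 2.05-fold and the ribosomal protein gene rps14 at least 2.04-fold higher. For rbcL the readings were 147.3 in low medium at day 9 and 71.9 in callus. It was not raised on the arrays set beside them, with 62.5 in low medium at day 5 and 73.1 in high medium at day 9. The products of the called genes spanned photosynthesis, protein turnover and translation. By product, median log2 ratios were 0.70 for 6 atp genes, 0.67 for 6 pet genes, 0.64 for 10 ndh genes, 0.44 for 20 psa and psb genes, 0.38 for 15 ribosomal protein genes and 0.15 for 4 rpo genes of the plastid RNA polymerase. The lowest member was psaJ of photosystem I, which read 399.4 in low medium at day 9 and 728.6 in callus.

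The chloroplast list stood further above callus at day 9 than at day 5, unlike the heat-shock list. Its median log2 ratio over callus was 0.25 for day 5 and 0.58 for day 9 of low medium. In high medium at day 9 it was 0.52. For psbT the readings were 19.0 in callus, 45.0 in low medium at day 5 and 79.6 at day 9. For the mitochondrial list the medians over callus were 1.1 for day 5 and 0.59 for day 9 of low medium, and 0.80 in high medium at day 9. How transcripts without a long poly(A) tail were primed was not given in the sources used here.

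**Figure D3:**
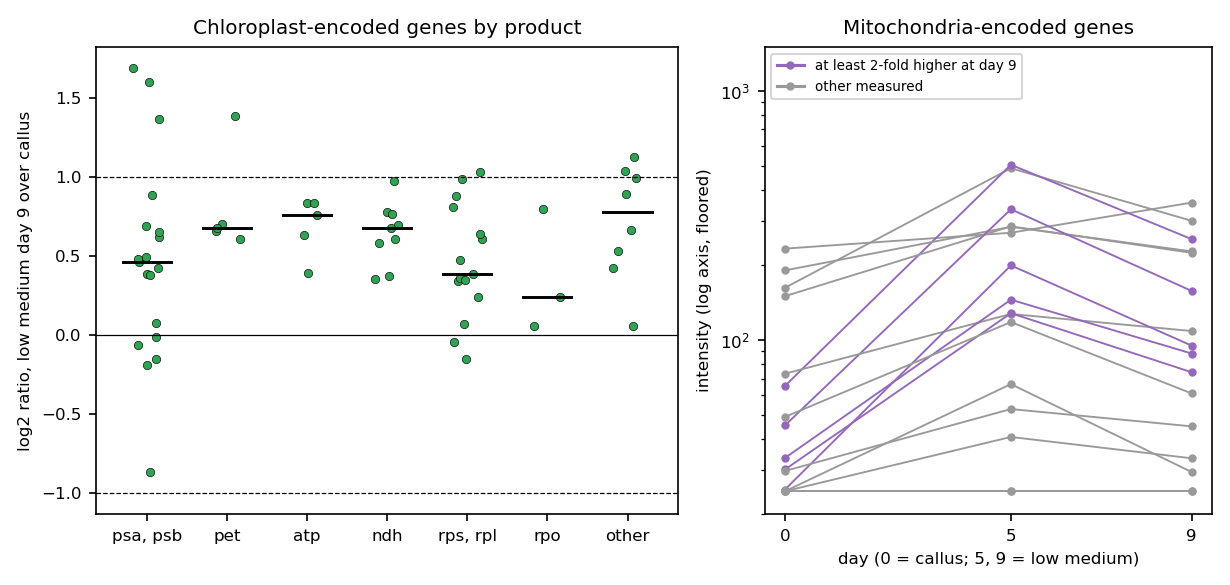
Left, log2 ratios of low medium at day 9 over callus for the 64 chloroplast-encoded genes with a ratio, grouped by gene name prefix, with a bar at each group's median over these genes and dashed lines at 2-fold. Right, intensities on a log axis of the 16 measured mitochondria-encoded genes in callus (day 0) and after 5 and 9 days of low medium, with the 5 genes at least 2-fold higher at day 9 in purple. Most chloroplast points lie between 0 and 1, and the purple lines peak at day 5.

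Nuclear genes for photosynthesis and chlorophyll synthesis had ratios mostly below 0. Of 20 listed and measured, 0 were at least 2-fold higher and 1 was lower (5%, against 1.19% of all genes). Of the 14 with a ratio, 13 lay below 0. The list median log2 ratio was -0.26. The called member of the list was PSBW, a photosystem II subunit, with 28.9 in low medium at day 9 and 70.9 in callus (2.45-fold lower). Outside the list, AT1G74470, the geranylgeranyl reductase of chlorophyll synthesis, read 59.2 in low medium at day 9 and 144.1 in callus (2.43-fold lower). AT2G26500, a subunit of the photosynthetic cytochrome complex, read 35.6 in low medium at day 9 and 86.5 in callus (2.43-fold lower). The light-harvesting gene LHCB4.1 read 30.9 in low medium at day 9, 65.2 in high medium at day 9 and 50.0 in callus. PSBY, another photosystem II subunit, read 51.8 in low medium at day 9, 93.9 in high medium at day 9 and 93.7 in callus. The list was dim on both arrays. Its brightest gene, HEMB1, an enzyme of porphyrin synthesis, read 103.5 in low medium at day 9 and 121.3 in callus.

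Among the lists described here, class III peroxidases, a long list, held the largest number of genes that were lower in low medium at day 9. Their share, 18.2%, was below that of extensins (44.4%), subtilases (25%) and plant defensins (23.1%). Of 55 measured, 10 were at least 2-fold lower and 0 higher, against 1.19% of all genes that were lower. The other members were not uniformly lower, since 31 of the 55 lay at the floor on both arrays and 6 of the 24 with a ratio lay above 0. The median log2 ratio over those 24 was -0.74. With the floor at the 60th percentile 6 were lower, and with it at the 20th percentile 15 were lower and 1 higher. AT5G64100 had the lowest ratio of any gene. It read 20.0 in low medium at day 9 and 304.9 in callus, at least 12.3-fold lower. AT5G17820 read 23.6 in low medium at day 9 and 144.2 in callus, at least 5.84-fold lower. AT5G51890 read 25.8 in low medium at day 9 and 145.3 in callus (5.63-fold lower), and AT2G37130 read 53.2 in low medium at day 9 and 215.3 in callus (4.05-fold lower). AT1G71695 read 169.2 in low medium at day 9 and 563.2 in callus (3.33-fold lower). The remaining 5, AT3G21770, AT2G34060, AT2G43480, AT4G36430 and AT5G40150, were between 2.06-fold and 2.25-fold lower, AT5G40150 as a bound. The brightest peroxidase genes differed little. PRXR1 read 2213.3 in low medium at day 9 and 2360.0 in callus, and Prx37 read 598.9 in low medium at day 9 and 732.0 in callus.

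Of the 55 peroxidase genes, 9 were at least 2-fold lower in low medium at day 5, where 1.85% of all genes were, and 5 in high medium at day 9, where 1.3% were, over the same callus array. AT2G37130 read 53.2 in low medium at day 9, 158.4 in high medium at day 9 and 215.3 in callus. AT5G51890 read 25.8 in low medium at day 9, 69.7 in high medium at day 9 and 145.3 in callus. AT3G21770 read 177.2 in low medium at day 9, 283.6 in high medium at day 9 and 382.1 in callus. For these genes the high medium value lay between the other readings, and with 1 array each the media were not tested against each other.

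**Figure D4:**
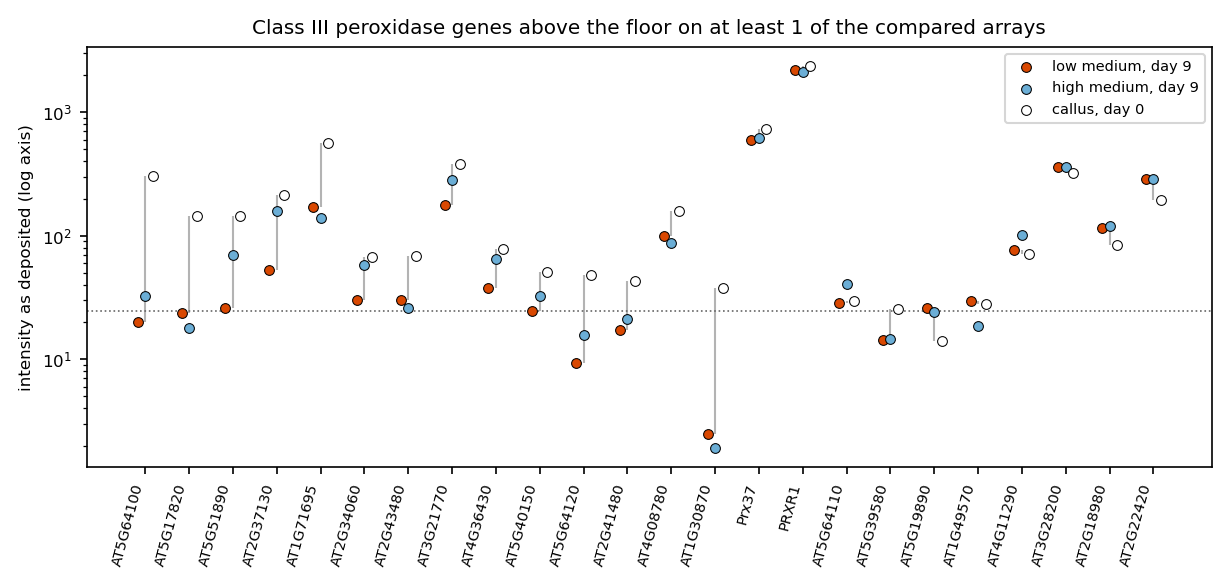
Intensities as deposited, on a log axis, of the 24 class III peroxidase genes with a ratio, ordered by the log2 ratio of low medium at day 9 over callus. Orange points are low medium at day 9, blue points high medium at day 9 and open points callus, 1 array each. The dotted line is the floor, and grey lines join low medium at day 9 to callus. At the left the orange points lie far below the open ones, and at the right they lie at or above them.

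Enzymes that conjugate or reduce reactive compounds included some of the lowest genes. Of 11 tau glutathione transferase genes, 2 were at least 2-fold lower (18.2%, against 1.19% of all genes) and 0 higher. At the floor on both arrays were 7. GSTU25 read 66.3 in low medium at day 9 and 612.3 in callus (9.24-fold lower), and GSTU26 read 33.7 in low medium at day 9 and 158.6 in callus (4.71-fold lower). GSTU27 read 109.6 in low medium at day 9 and 215.8 in callus, just short of 2-fold. Among 47 listed UDP-glycosyltransferase genes, those with a UGT symbol, 4 were lower (8.51%, against 1.19% of all genes) and 0 higher. UGT76B1, which glucosylates isoleucic and salicylic acid, read 10.6 in low medium at day 9 and 141.3 in callus, at least 5.72-fold lower. UGT73B5 read 34.5 in low medium at day 9 and 155.4 in callus (4.50-fold lower), and UGT73B4 read 295.4 in low medium at day 9 and 757.7 in callus (2.56-fold lower). UGT71C3 was 2.48-fold lower. Of the family outside the list, AT3G46700 was higher, with 243.3 in low medium at day 9 and 69.9 in callus (3.48-fold), and IAGLU, an auxin glucosyltransferase, was lower, with 167.2 in low medium at day 9 and 337.7 in callus (2.02-fold). The brightest member, UGT87A2, read 646.1 in low medium at day 9 and 818.5 in callus. Among 12 aldo-keto, alkenal and oxophytodienoate reductase genes, 2 were lower (16.7%, against 1.19% of all genes) and 0 higher. The aldo-keto reductase AT1G60730 read 118.2 in low medium at day 9 and 485.3 in callus (4.11-fold lower). AER, a reductase of reactive alkenals, read 68.2 in low medium at day 9 and 156.2 in callus (2.29-fold lower). AT3G13610, the hydroxylase that opens the route to the coumarin scopoletin, read 41.6 in low medium at day 9 and 243.0 in callus (5.84-fold lower).

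GSTU25 and GSTU26 are next to each other in the genome, as are UGT73B5 and UGT73B4. Among 5814 pairs of neighbouring genes with both measured, the first gene was called in either direction in 149 pairs. Of the 5814, 6 pairs were lower together, 2 were higher together and 3 had opposite calls. The other lower pairs were AT2G34050 with the peroxidase AT2G34060, AT2G40600 with EXPA8, AT3G54580 with HRGP1, and SAH7 with AT4G08690. The higher pairs were AT1G72790 with AT1G72800 and AT4G33980 with AT4G33985. Several of these neighbours are similar copies, and whether their RNAs hybridise to each other's probes was not tested.

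Genes of the cell wall and of secreted proteins were also lower in part. Of 9 extensin genes, whose products form the protein network of the wall, 4 were at least 2-fold lower and 0 higher. The lower share was 44.4%, against 1.19% of all genes. HRGP1 read 47.2 in low medium at day 9 and 177.8 in callus (3.77-fold lower). AT5G06630 read 19.4 in low medium at day 9 and 88.0 in callus, at least 3.56-fold lower. AT1G23720 was 3.42-fold lower and AT3G54580 at least 2.09-fold lower. With the floor at the 60th percentile 1 of the list was lower. Extensin genes are repetitive and alike, so their probe sets may share signal. Of 27 expansin and XTH genes, which loosen or rebuild the wall during growth, 3 were lower (11.1%, against 1.19% of all genes) and 0 higher. XTH20, a xyloglucan-remodelling enzyme, read 36.1 in low medium at day 9 and 285.0 in callus (7.89-fold lower). EXPA9 read 76.8 in low medium at day 9 and 193.7 in callus (2.52-fold lower), and EXPA8 read 6.1 in low medium at day 9 and 68.0 in callus, at least 2.75-fold lower. The bright members were close to equal or higher. EXPA4 read 959.5 in low medium at day 9 and 1056.8 in callus, and EXLA1 read 620.2 in low medium at day 9 and 385.5 in callus.

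Of 13 plant defensin genes, which encode small cysteine-rich secreted peptides, 3 were lower (23.1%, against 1.19% of all genes) and 0 higher. LCR69 read 340.8 in low medium at day 9 and 1140.9 in callus (3.35-fold lower). LCR67 read 66.8 in low medium at day 9 and 179.5 in callus (2.69-fold lower), and LCR68 was at least 2.13-fold lower. Of 8 subtilase genes, which encode secreted proteases, SBT1.3 (4.01-fold) and SBTI1.1 (at least 2.05-fold) were lower and 0 were higher. The lower share was 25%, against 1.19% of all genes. AT3G14067, a subtilase outside the list, was at least 2.15-fold lower. In the lipid transfer and hybrid proline-rich list, 1 of 10 genes was lower (10%, against 1.19% of all genes). This gene, AT4G12490, read 16.6 in low medium at day 9 and 59.4 in callus. Brighter lipid transfer family genes outside the list were also lower. AT3G18280 read 600.9 in low medium at day 9 and 1321.8 in callus (2.20-fold lower), and AT1G48750 read 126.6 in low medium at day 9 and 328.9 in callus (2.60-fold lower). AT3G10080, a germin-like protein gene, read 31.4 in low medium at day 9 and 209.2 in callus (6.66-fold lower). The remaining genes among the 15 lowest were AT4G01870 (7.09-fold lower), AT3G60420 (6.95-fold), the AAA-type ATPase gene AT3G28510 (6.44-fold), AT1G54890 (4.97-fold) and AT1G67330 (at least 4.32-fold). AT4G01870 was the brightest of these in callus, with 125.1 in low medium at day 9 and 886.6 in callus. Lower probe sets without a gene name here were led by 259875_s_at, with 81.0 in low medium at day 9 and 926.4 in callus, and 251733_at, with 69.2 in low medium at day 9 and 683.3 in callus. Probe set 251733_at read 143.5 in low medium at day 5 and 224.1 in high medium at day 9.

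The change of medium altered sugar, mannitol and kinetin, while 2,4-D stayed at the same concentration. Of 17 sugar transporter and invertase genes, 1 was higher (5.88%, against 1.12% of all genes) and 2 were lower (11.8%, against 1.19%). SFP1, of the monosaccharide transporter family, read 99.3 in low medium at day 9 and 45.8 in callus (2.17-fold higher). AT1G67300, a hexose transporter-like gene outside the list, read 368.3 in low medium at day 9 and 148.6 in callus (2.48-fold higher). The sugar exporter SWEET1 read 73.2 in low medium at day 9 and 153.7 in callus (2.1-fold lower). cwINV6, which despite its name cleaves fructans, read 48.9 in low medium at day 9 and 135.8 in callus (2.78-fold lower). Of 11 listed dehydrin and other osmotic response genes, 0 were higher and 1 was lower (9.09%, against 1.19% of all genes). The highest log2 ratio in this list was 0.96, just short of 2-fold, and with equal array medians 1 member was called higher. The lower member was the dehydrin LTI30, with 70.9 in low medium at day 9 and 256.0 in callus (3.61-fold lower). Outside the list, the dehydrin family gene AT4G38410 read 84.5 in low medium at day 9 and 233.7 in callus (2.77-fold lower). AT3G53040, a late embryogenesis abundant protein gene, read 16.7 in low medium at day 9 and 67.6 in callus, at least 2.74-fold lower. Other late embryogenesis abundant protein genes were higher. AT2G03850 read 115.2 in low medium at day 9 and 26.7 in callus (4.31-fold higher). AT2G23110 read 60.5 in low medium at day 9 and 16.5 in callus, at least 2.45-fold higher. COR47, another dehydrin, read 228.0 in low medium at day 9, 66.9 in high medium at day 9 and 319.1 in callus.

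Of 14 auxin response genes measured, 1 was at least 2-fold higher in low medium at day 9 and 0 lower. The higher share was 7.14%, against 1.12% of all genes. All 10 with a ratio lay above 0, and the list median log2 ratio was 0.26, with 4 at the floor on both arrays. The called gene was IAA20, an atypical Aux/IAA repressor, with 121.6 in low medium at day 9 and 59.7 in callus (2.04-fold). WES1, an auxin-conjugating GH3 enzyme, read 2027.2 in low medium at day 9 and 1251.4 in callus (1.62-fold). The brightest other GH3 gene, GH3.3, read 1967.3 in low medium at day 9 and 1742.1 in callus. In high medium at day 9, IAA20 read 46.1, WES1 read 1955.9 and GH3.3 read 2162.5.

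No listed autophagy, mitosis or xylan and lignin gene reached 2-fold in either direction. Since only 1.12% of all genes were higher and 1.19% lower, the absence of calls in lists this short says little about them. All 10 autophagy genes lay above 0, with log2 ratios of 0.17 to 0.55 and a median of 0.26. Their brightest members were the ATG8 genes, whose product coats the autophagosome membrane. ATG8F read 1009.4 in low medium at day 9 and 839.7 in callus, and APG8H read 707.2 in low medium at day 9 and 618.3 in callus. Of 11 mitosis and cytokinesis genes, 7 lay below 0 and 3 above, with a median log2 ratio of -0.28. KINESIN-13A, of the kinesin family, read 134.9 in low medium at day 9 and 163.7 in callus. The spindle checkpoint gene BUB3.1 read 123.9 in low medium at day 9 and 139.6 in callus. Of 9 xylan and lignin genes, 6 lay below 0 and 1 above, with a median of -0.44. HCT, an early enzyme of lignin monomer synthesis, read 457.8 in low medium at day 9, 569.0 in high medium at day 9 and 670.0 in callus. With 1 array each, these small ratios have no error.

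**Figure D5:**
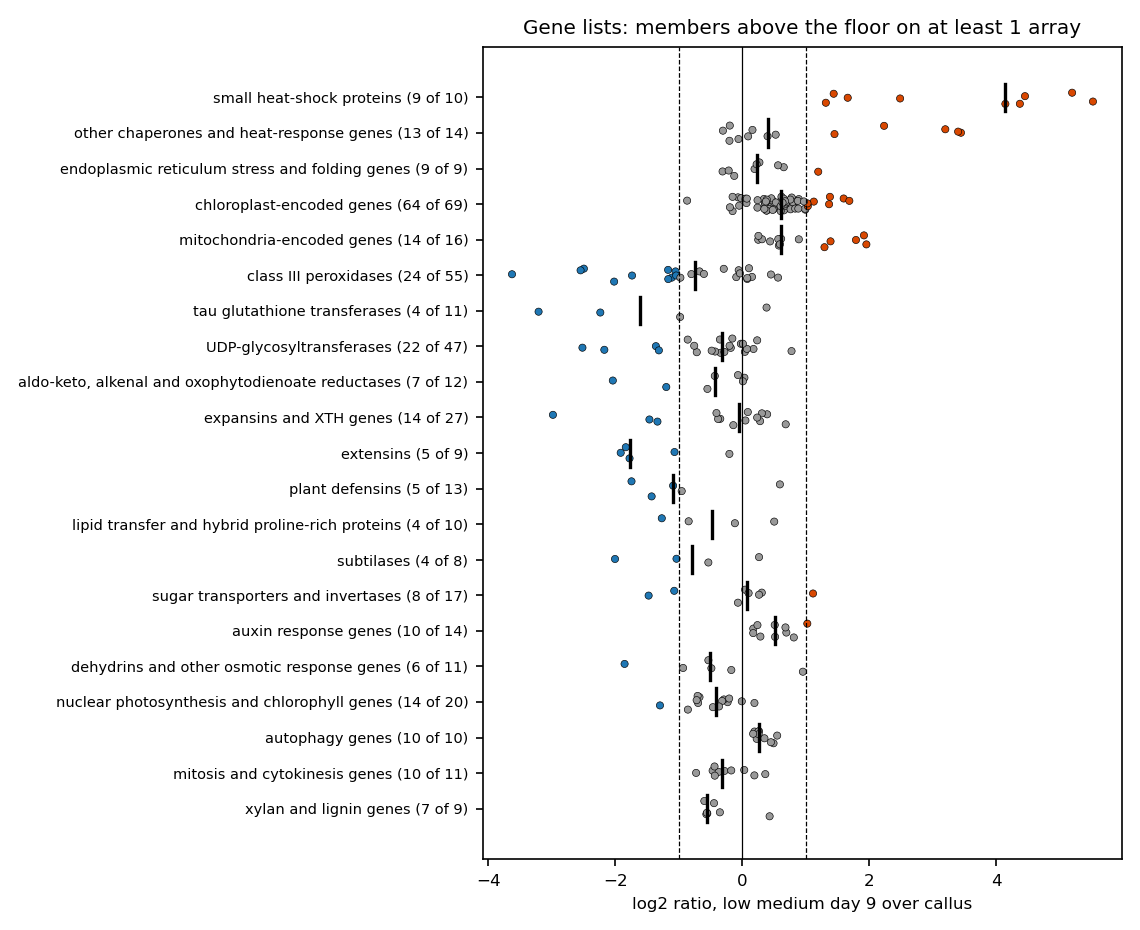
Log2 ratios of low medium at day 9 over callus for every listed gene with a ratio, 1 point a gene, with the number having a ratio and the number measured after each list's name. Orange points are at least 2-fold higher, blue points at least 2-fold lower, dashed lines mark 2-fold, and the black bar is the median of the plotted points. It leaves out genes at the floor on both arrays and so lies further from 0 than the list medians in the text. Small heat-shock protein genes reach above 5, and the lowest class III peroxidase lies below -3.

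Genes next to the 2-fold line show how closely the count rests on it. Just inside on the higher side were AT1G80180 (98.5 in low medium at day 9, 49.2 in callus), AT3G12510 (104.7 against 52.3) and AT4G10580 (54.0 against 27.0). Just outside were AT2G20550, ycf4 and AT4G31410, each with a log2 ratio of 0.99 to 1.00. On the lower side AT1G63840 (129.3 in low medium at day 9, 258.7 in callus), AT1G70780 (339.1 against 679.8) and AT4G02800 (32.6 against 65.4) lay just inside. AT4G16230 (20.3 in low medium at day 9, 49.1 in callus), AT1G66880 (31.7 against 63.1) and AT3G27950 (38.1 against 76.1) lay just outside. The genes on either side of these lines cannot be told apart by size.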

How the data were processed

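The deposited values were 1 linear intensity per probe set and array, 22810 in all. Which program summarised the arrays was not given in the sources used here. Trimmed means were nearly equal on the 6 arrays, 99.2 to 99.4, so no further scaling was applied. The growth text names the high medium's hormones for all samples, so each medium was taken from the sample name and treatment text, per the labels. The 64 control probe sets were dropped. The floor of 24.7 was set from the 40th percentile of each array, as the median of these, and log2 ratios were taken of the floored intensities.

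The platform annotation gave 1 gene for 13513 probe sets, several for 503 and none here for 8730, and names were updated through the RefSeq table of TAIR10.1 (13436 matched). Each gene was read from its brightest probe set on average. Of 627 probe sets called, 299 (47.7%) are unnamed here and 14 hold several genes. Of the cell type markers, 8 names fit more than 1 gene and were not used. The genes named are the 15 highest and 15 lowest, list members reaching 2-fold or the 2 brightest where none did, and 3 genes on each side of the 2-fold lines; other members set beside them were chosen after their values were seen. Lists were written by hand from symbols and loci and do not cover whole families. The comparison, gene lists and members were chosen with earlier results of these data known, so list counts are descriptions. With 1 array a side no test was made and no p-value is given. The number of arrays limits the precision. Computation used Python 3.11.15, numpy 2.4.6 and pandas 2.3.3, with figures by matplotlib 3.10.9. Alternatives were other floors, quantile scaling, equal array medians, a pseudocount of 16, a 3-fold limit, genes in place of probe sets, and the mean over a gene's probe sets.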

Additional observations from a re-analysis of the deposited data

Results flagged for a closer look

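IAA20, an atypical Aux/IAA repressor gene, had a log2 ratio of 1.03 over callus in low medium at day 9 and of -0.37 over the same callus array in high medium at day 9, which is the opposite direction. It read 121.6 in low medium at day 9, 46.1 in high medium at day 9 and 59.7 in callus. The difference was not tested, since each medium has 1 array at this day.

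AT3G27200, a plastocyanin-like gene, had a log2 ratio of -1.22 over callus in low medium at day 9 and of 0.36 in high medium at day 9. It read 67.5 in low medium at day 9, 201.3 in high medium at day 9 and 156.7 in callus. This difference was not tested either.

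The control probe set for 5S ribosomal RNA, which takes no part in the comparison, read 149.1 in low medium at day 9, 132.4 in high medium at day 9 and 11.0 in callus. It was at least 6.04-fold higher in low medium at day 9 than in callus. It was picked out because it lies outside the main measurement and is above the callus level.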

How the results depend on the processing

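Against 271 probe sets higher and 356 lower, a floor at the 20th percentile gave 495 higher and 731 lower, a floor at the 60th percentile gave 161 and 183, a 3-fold limit gave 83 and 85, and counting genes gave 149 and 159. Quantile scaling (286 and 331), equal array medians (330 and 292) and log2 of the intensity plus 16 without a floor (207 and 308) stayed within 1.5 times of these counts. The balance between directions depended on scaling. Of the called probe sets 43.2% were higher in the main setting and 53.1% with equal array medians. The median log2 ratio over probe sets was -0.02, and 0.05 with equal array medians, so no scaling moved it by over 0.1. Of the 149 higher and 159 lower genes, 79 and 81 were still called with the floor at the 60th percentile, which leaves dim genes no room to differ. With the pseudocount, 100 and 99 of them were still called. With equal array medians, which raise low medium at day 9 relative to callus, it was 149 and 126. With quantile scaling it was 148 and 146. Of the 30 genes with the highest and lowest ratios, 1 lower gene was no longer called with the floor at the 60th percentile. All 30 were called with the other floor, quantile scaling, equal array medians and the pseudocount. This says little, since a lower floor cannot remove a call and the 30 were chosen as the extremes of the same values. None of the 308 called genes changed direction under these 5 settings, but this outcome was fixed beforehand. Floors and a pseudocount cannot reverse a ratio, and the scalings moved the median log2 ratio by less than 0.1. The mean over a gene's probe sets was run for the lists only. With the floor at the 60th percentile, calls were 6 higher among small heat-shock proteins (median 2.70), 2 higher among chloroplast and 2 among mitochondria-encoded genes, 6 lower among class III peroxidases, 1 lower among extensins and 0 among auxin response and nuclear photosynthesis genes. With the floor at the 20th percentile, 10 chloroplast-encoded genes were higher and 1 lower, 7 mitochondria-encoded genes were higher, 15 class III peroxidases were lower and 1 higher, 7 UDP-glycosyltransferases were lower and 1 higher, and 4 nuclear photosynthesis genes were lower and 1 higher. The extensin median was then -0.80. No paired analysis was possible because each condition has 1 array. Leaving out a replicate was not possible either. Genes near the floor have only bounds, and no difference here has an error.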
